A study of Caenorhabditis elegans with 4 samples.

Results

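LIN-15B peaks in autosomal 3' untranslated regions (3' UTRs) of Caenorhabditis elegans were described from ChIP-seq peak lists of whole L4 larvae, the last larval stage. These are the pooled peaks on chromosomes I to V whose summit, the position of highest signal, falls in an annotated 3' UTR and in no coding sequence. Summits close to the start of a protein-coding transcript, at most 500 bp before it or 100 bp after it, were left out as promoter peaks. The rule kept 343 of the 7135 autosomal peaks, and of the 8636 peaks in the whole pooled list. The rule sets no threshold on score or replicate recovery. It does rest on the summit positions and on entry to the pooled list, which was made from the same replicates and ends at a score of 11.4. Lying in a 3' UTR and away from starts is not a result.

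All 4 samples belong to 1 group. The animals were strain OP184, genotype unc-119(tm4063) III; wgIs184, in which LIN-15B with a C-terminal GFP-FLAG tag is expressed from a transgene; males and females were pooled. The labels list no mutation of the native lin-15B gene and give no age. Replicates 1 and 2 are 1 library each, and replicate 3 has 2 technical libraries that share 1 peak list and count once. Replicates 1 and 2 are labelled as coming from the strain centre and replicate 3 from the laboratory, with sonication named for replicate 3 alone. There is no second genotype, stage or treatment, so every comparison is between classes of genomic position within these lists, and p-values measure only the spread between these 3 replicates. No read counts were given, so the depth behind each list is unknown.

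LIN-15B, a protein with a THAP DNA-binding domain, belongs to the synMuv B genes, known from vulval development and from keeping germline genes off in somatic cells. It is best known from promoters. A 3' UTR is the part of a messenger RNA after the stop codon and carries the signals for cleavage, polyadenylation and control of translation. In the compact C. elegans genome the ends of neighbouring genes on opposite strands often meet or overlap, an arrangement called convergent; where the next gene lies on the same strand, the arrangement is called tandem.

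The sequence at the summits of the strongest of these peaks is shown first, because CG dinucleotides were more frequent at LIN-15B's promoter peaks. Each run holds 30 bases of the ce11 (WBcel235) assembly around the summit, 5' to 3' on the host gene's strand, with CG dinucleotides in capitals. They belong to the 8 highest-scoring 3' UTR peaks on chromosomes II to V.
lelo-2, chrIII:1419935-1419964, minus strand: ttgttttcccatttcatctctagccaatga
bed-2, chrIII:11463973-11464002, minus strand: ccCGcagcagcCGaCGctctccacaaccCG
zig-11, chrV:1875739-1875768, minus strand: cattgttgcctCGattttcagagatctCGt
dnj-20, chrII:9618078-9618107, minus strand: tCGaacctgatcttcaactcaaaaatgatc
mnk-1, chrII:10543454-10543483, minus strand: cagtgactagttgagctcttttgattctca
rpl-3, chrIII:3869549-3869578, plus strand: ttttgttgaatctgaaggactatgctgctt
arrd-6, chrII:11150250-11150279, plus strand: gtttCGaaagttattgaccagaaaaaattt
cgh-1, chrIII:7495533-7495562, minus strand: atcatgtcaaatggctcaaagactataatg
The bed-2 run stands apart, with 4 CG dinucleotides and 73.3% G+C. The zig-11 run holds 2 CG dinucleotides, those of dnj-20 and arrd-6 hold 1 each, and the other runs hold 0.

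In the whole pooled list, which holds peaks with background, LIN-15B peaks were dense in 3' UTRs. The 343 peaks are 4.81% of the autosomal peaks, while the bases that satisfy the rule are 2.67% of the autosomal sequence. That is 156 peaks per megabase in 3' UTRs, against 163 in promoter windows, 109 in other exons (neither coding nor 3' UTR), 76.3 in intergenic sequence, 68.6 in coding exons and 65.4 in introns. The strongest peaks did not share this density. Of the 332 autosomal peaks in ranks 1 to 383 of the pooled list, 6 were in 3' UTRs. That is 1.81%, below the 2.67% of the sequence. The 343 peaks fell in 328 different host genes, of which 14 held at least 2. F58D5.5 held 3, with scores of 16.1, 15.1 and 14.98.

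The peaks were of middling strength. The score is the authors' signal value, used here only to rank peaks within a list. The median score was 13.80 (quartiles 12.40 and 15.93) at 3' UTR peaks and 13.55 (12.24 and 16.06) at all other autosomal peaks, against 12.998 at coding exon, 13.04 at intron, 14.18 at other exon and 15.18 at promoter peaks. In the upper 50 percent of the pooled list by score the order turned, with the ratio of the 3' UTR median to that of the others at 0.980, against 1.02 over the whole list. The highest 3' UTR score was 35.96, and the highest promoter score was 385. The authors used a test of reproducibility between replicates to keep a set of 383 pooled peaks, the optimal peaks. Of these, 332 are autosomal, as many as in ranks 1 to 383 of the pooled list. An optimal peak need not be found in every replicate, as given below for mnk-1. The optimal set held 6 of the 343 3' UTR peaks. That is 1.75% (95% exact binomial interval 0.645 to 3.77, counting error only), against 4.65% of all autosomal peaks. The share was 13.4% at promoter peaks, 4.76% at other exon, 2.47% at intergenic, 0.549% at intron and 0.232% at coding exon peaks.

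Below the very top of the list 3' UTR peaks took a larger share. In the pooled list they were 1.81% of the autosomal peaks ranked 1 to 383 and 6.02% of those ranked 384 to 1000 (32 peaks). The 3' UTR peaks in ranks 1 to 383 are the same 6 that were optimal, so this low share repeats the low optimal share. Over the 4 lower bands the share lay between 4.38% and 5.98%. The replicate lists hold 30000 peaks each, and their own summits can be classed without the pooled list. They had 903, 845 and 932 peaks in 3' UTRs in replicates 1, 2 and 3, or 3.72%, 3.50% and 3.74% of their autosomal peaks. In ranks 1 to 383 the share was 2.79%, 4.65% and 1.86%, against 3.73%, 3.48% and 3.76% in the rest of each list. The difference was positive in replicate 2 alone, with a mean of -0.56 ± 1.57 points (SD, n = 3; exact sign-flip permutation test, two-sided, p = 0.75). With 3 replicates this test cannot give a p below 0.25. Without replicate 3 the mean difference was 0.111 points, so its sign rests on that replicate.

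**Figure D1:**
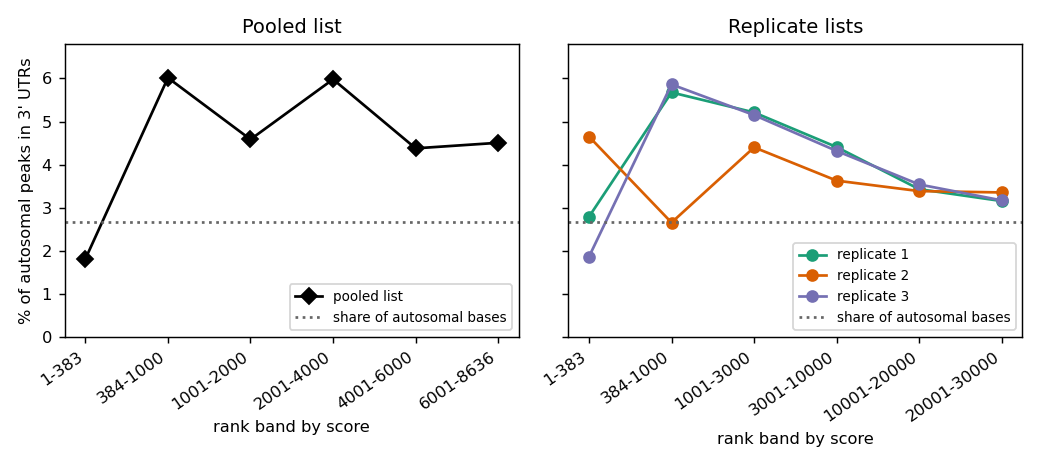
Share of autosomal peaks with a summit in a 3' UTR (percent) by rank band, in the pooled list (left, diamonds) and in the 3 replicate lists (right, circles), with the 3' UTR share of autosomal bases dotted at 2.67%. In replicates 1 and 3 the share is 5.68% and 5.86% at ranks 384 to 1000 and 3.15% and 3.17% in the last 10000 ranks, while replicate 2 has 2.65% and 3.35%.

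Within the replicate lists the median score of 3' UTR peaks stood slightly above that of the other autosomal peaks. It was 4.01, 5.38 and 3.83 for 3' UTR peaks in replicates 1, 2 and 3, against 3.70, 5.30 and 3.49 for the others. The log2 ratio was 0.12, 0.02 and 0.13, with a mean of 0.09 ± 0.06 (SD, n = 3; exact sign-flip permutation test, two-sided, p = 0.25, the smallest possible). The ratio was above 0 in 3 of 3 replicates, with the smallest value in replicate 2.

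In each replicate few 3' UTR peaks were among the strongest. One of the 383 highest-scoring peaks covered the summit for 10 of 343 in replicate 1, 15 in replicate 2 and 10 in replicate 3. These are 2.92%, 4.37% and 2.92%, against 4.33%, 4.71% and 4.53% of all autosomal peaks. The mean was 3.40% ± 0.842, against 4.58% ± 0.164 at all other autosomal peaks (SD, n = 3). The difference was negative in 3 of 3 replicates, with a mean of -1.18 ± 0.722 points (exact sign-flip permutation test, two-sided, p = 0.25). Promoter peaks had 11.3%, 11.8% and 11.8%, and other exon peaks 4.76%, 4.76% and 8.57%. Intergenic peaks had 2.75%, 2.92% and 2.70%, intron peaks 0.793%, 0.793% and 0.732%, and coding exon peaks 0.696%, 1.39% and 0.851%. The 3' UTR share was below the first 2 classes and above intergenic, intron and coding exon peaks in every replicate. No 3' UTR peak was top-ranked in all 3 replicates, 0 of 343, against 1.68% of all autosomal peaks. An approximate upper limit for the 3' UTR share is 0.875% (3 of 343, not an exact interval, counting error only). In exactly 2 replicates 4 of the 343 were top-ranked, and in exactly 1 replicate 27. In exactly 1 replicate 195 of 1975 promoter, 87 of 1780 intergenic, 33 of 1639 intron, 32 of 1293 coding exon and 6 of 105 other exon peaks were. In exactly 2 replicates these counts were 88, 13, 1, 3 and 5. In all 3 replicates they were 106, 12, 1, 0 and 1. Most such peaks were thus promoter peaks, and coding exon peaks also had 0. The pooled list was made from the same 3 replicates, so recovery is not an independent test of the peaks themselves.

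In the full lists of 30000 peaks most 3' UTR summits were found again, and replicate 2 differed from the others. A peak covered 60.3%, 60.3% and 69.1% of 3' UTR summits in replicates 1, 2 and 3, against 57.3%, 71% and 60.2% of all autosomal summits. Against the other autosomal peaks the difference was 3.19 points in replicate 1, -11.2 points in replicate 2 and 9.31 points in replicate 3, so the direction was not shared (mean 0.44 ± 10.5, SD, n = 3; exact sign-flip permutation test, two-sided, p = 1). Without replicate 2 the mean difference was 6.25 points. Leaving out replicate 1 or replicate 3 turned it to -0.935 or -3.99 points. Replicate 2 recovered more coding exon, intron, intergenic and promoter summits than the other replicates did, and in the 3' UTR class it did not exceed replicate 1. A peak of all 3 replicates covered 61 of the 343 summits (17.8%), against 21.2% of all autosomal summits, 33.9% at promoter and 13.6% at coding exon peaks. In exactly 2 replicates 191 of the 343 were covered, in 1 replicate 86, and in none 5 (1.46%, against 2.08% of all other autosomal peaks). Exactly 2 replicates covered 842 of 1975 promoter, 876 of 1780 intergenic, 815 of 1639 intron, 662 of 1293 coding exon and 47 of 105 other exon summits. For exactly 1 replicate these counts were 432, 550, 522, 427 and 24. The lists covered 14.5%, 13.2% and 16.2% of all 3' UTR bases of the rule. Of all autosomal bases they covered less, 10.71%, 10.04% and 11.54% in replicates 1, 2 and 3.

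**Figure D2:**
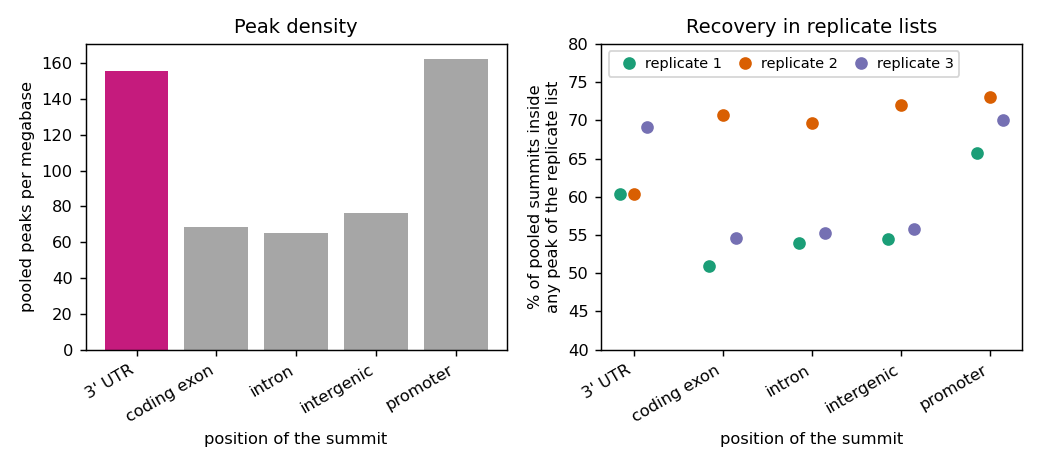
Left, pooled autosomal peaks per megabase by position of the summit, with 3' UTR peaks at 156 and promoter peaks at 163. Right, percent of pooled summits inside any peak of each replicate list (axis from 40%), where 3' UTR summits have 60.3%, 60.3% and 69.1% in replicates 1, 2 and 3, and replicate 2 is the highest in the other 4 classes.

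The ranks of single 3' UTR peaks differed widely between replicates. Spearman's rho of the ranks, given as a description over peaks, was 0.142 between replicates 1 and 2 (109 peaks found in both), 0.0175 between 1 and 3 (135 peaks) and 0.0874 between 2 and 3 (130 peaks). For other autosomal peaks it was 0.228, 0.334 and 0.265 in the same pairs. The recovery of a replicate's own summits in another replicate was higher in 3' UTRs than at other autosomal summits, but lower than at promoters. It ran from 21.6% to 28.3% over the 6 ordered pairs of lists, against 19.3% to 21.6% for other autosomal summits, and it was higher in 6 of 6 pairs. Promoter summits had 27.7% to 31.6%, above 3' UTR summits in every pair, and coding exon summits 15.1% to 19.3%. The pairs come from 3 lists and are not independent. The lists also covered more of the 3' UTR bases than of all autosomal bases, and the part this plays was not tested.

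The highest-scoring 3' UTR peak was at suro-1, which encodes a carboxypeptidase-like protein needed for body shape. The peak spans chromosome I 7872078 to 7872417, with a score of 35.96, pooled rank 269, and ranks of 549, 316 and 358 in replicates 1, 2 and 3. It is the steadiest of the 6 optimal peaks, near the top of every list. Its summit lies 16 bp after the stop codon, and the transcript overlaps the end of pck-2, which encodes a phosphoenolpyruvate carboxykinase, by 9 bp.

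The peak at lelo-2 (chromosome III 1419780 to 1420119, score 33.7) ranked 6388, 334 and 105 in replicates 1, 2 and 3. Replicate 1 was far lower than the others. The host overlaps the convergent gene Y82E9BR.3 by 15 bp. The peak at bed-2, a gene for a BED-type zinc finger protein (chromosome III 11463818 to 11464157, score 32.7), ranked 4598, 277 and 331, again lowest in replicate 1. The 100 bases to each side of its summit have 56.7% G+C, against a median of 32.8% over the 343. The convergent gene plr-1 ends 767 bp away.

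The peak at zig-11, which encodes an immunoglobulin-domain protein (chromosome V 1875584 to 1875923, score 31.6), ranked 1389, 282 and 797. The host overlaps cct-7, a gene for a subunit of the cytosolic chaperonin, by 28 bp. The peak at dnj-20, a gene for a DnaJ-type co-chaperone (chromosome II 9617923 to 9618262, score 30.8), ranked 919, 348 and 840. Both peaks were found in every replicate, with replicate 2 the highest. The next gene beyond dnj-20 is hal-3 on the same strand, whose start is 968 bp from the summit.

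The sixth optimal peak, at mnk-1, was found in 2 replicates. It spans chromosome II 10543299 to 10543638 with a score of 29.3 and ranked 354 in replicate 2 and 18336 in replicate 3, while replicate 1 had no peak over it. mnk-1 encodes a kinase of the family that phosphorylates the cap-binding translation factor eIF4E. Its annotated 3' UTR is 1936 bp long, and a noncoding RNA gene lies within 200 bp of the summit. Thus 5 of the 6 optimal summits were covered in all 3 replicates, and all 6 were in the 383 highest-scoring peaks of replicate 2.

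Below the optimal peaks came rpl-3, a protein of the large ribosomal subunit, with a score of 27.9 and pooled rank 401. It ranked 552, 2594 and 876 in replicates 1, 2 and 3, with the summit 23 bp before the transcript end and 2 bp between that end and tir-1, a TIR-domain signalling gene. rpl-3 also has an optimal peak in its own promoter window. The peak at zfr-1, a zinc-finger RNA-binding protein, scored 26.5 and ranked 1825, 200 and 10908. The peak at arrd-6, an arrestin-domain gene whose annotated end abuts that of pqm-1 (a zinc-finger factor of stress responses), scored 26.2 and ranked 2059, 1227 and 9377. Both were strongest in replicate 2.

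The opposite pattern appeared at rab-11.1, a small GTPase of recycling endosomes, with a score of 25.97. It ranked 159 in replicate 1 and 165 in replicate 3, and replicate 2 had no peak over the summit. Its summit lies 525 bp upstream of the start of the tandem gene Y48G1C.8, just outside the promoter window. The peak at xbp-1, a transcription factor of the unfolded protein response (24.4), ranked 2261, 722 and 373. C05C10.3 (23.7) was absent from replicate 1 and ranked 2219 and 1765 in replicates 2 and 3. At ncl-1, a B-box protein that limits nucleolar size (23.7), replicate 1 had the peak at rank 334 and the other 2 lists had none.

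**Figure D3:**
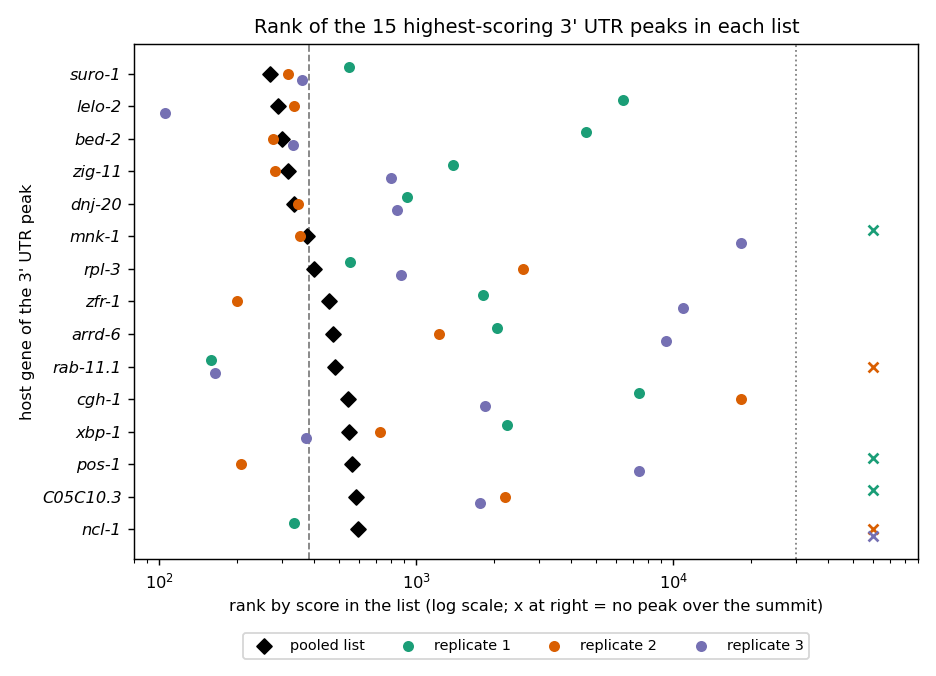
Rank by score (log axis, strongest at left) of the 15 highest-scoring 3' UTR peaks in the pooled list (diamonds) and in the 3 replicate lists (circles), with a cross where a list has no peak over the summit; the dashed line marks rank 383 and the dotted line the list length of 30000. Most replicate ranks lie to the right of the pooled rank, and none of the 15 has all 3 replicate ranks left of the dashed line.

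Host genes of 3' UTR peaks more often faced a convergent neighbour. Of the 343, 218 (63.6%, 95% exact binomial interval 58.2 to 68.7) had as the next gene one on the opposite strand, and 125 one on the same strand. The promoter window by itself removes summits close to the start of a tandem gene, so the comparison is with bases that satisfy the same rule, sampled at every 50th position (44095 positions). Of these, 52.1% had a convergent neighbour. A convergent neighbour whose end lay within 500 bp of the host's end, or overlapped it, was found for 52.5% of the 3' UTR peaks and 35.9% of the bases. Overlapping convergent transcripts accounted for 30.9% of the peaks and 21.5% of the bases. Convergent neighbours more than 500 bp away accounted for 11.1% and 16.2%, and tandem neighbours within 500 bp for 8.16% and 10.1%, both lower at the peaks.

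The replicates' own 3' UTR peaks showed the same arrangement. A convergent neighbour within 500 bp was found for 42.4%, 42.6% and 44.4% of them in replicates 1, 2 and 3, a mean of 43.1% ± 1.11 (SD, n = 3), against 35.9% of the bases. The difference of 7.25 ± 1.11 points was positive in 3 of 3 replicates (exact sign-flip permutation test, two-sided, p = 0.25, the smallest possible). Among peaks ranked 1 to 10000 the share was 47.03%, 47.7% and 51.3% (mean 48.7% ± 2.31), against 35.7%, 38.4% and 44.8% (mean 39.6% ± 4.70) among the last 10000 ranks. The stronger peaks had the higher share in 3 of 3 replicates, by 9.05 ± 2.43 points (exact sign-flip permutation test, two-sided, p = 0.25). Within the 343, convergent hosts had a median score of 14.07 and tandem hosts 13.31, while 15.1% of the summits at convergent hosts and 22.4% at tandem hosts were covered in all 3 replicates.

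Host genes also more often had a LIN-15B peak at their own start. A pooled promoter peak belonged to the host of 86 of the 343 peaks (25.1%, exact interval 20.6 to 30.01), against 17.6% of the bases, and an optimal one to 19 hosts' peaks (5.54%), against 2.89%. For the replicates' own 3' UTR peaks the share with a pooled promoter peak was 21.6%, 20.5% and 22.9%, higher than the bases in 3 of 3 by 4.04 ± 1.19 points (SD, n = 3; exact sign-flip permutation test, two-sided, p = 0.25). The promoter peaks come from the pool of the same replicates. Hosts with an optimal promoter peak included rpl-3, rps-26, the proteasome ATPase gene rpt-2 (score 22.8), nuaf-1 (23.1), eef-2, a translation elongation factor (14.0), pcn-1, the replication clamp PCNA (13.8), and efl-1, an E2F transcription factor of the synMuv B group (13.7).

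**Figure D4:**
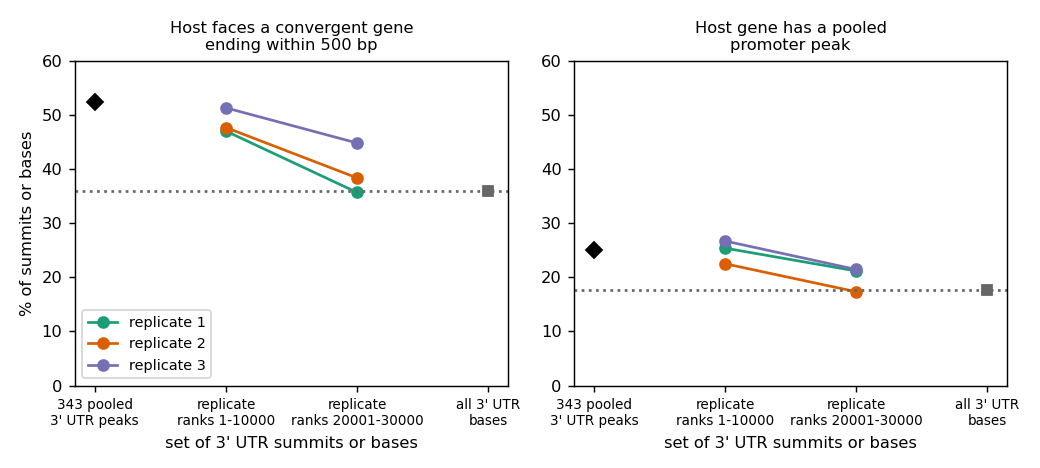
Share (percent) of the 343 pooled 3' UTR peaks (diamond), of each replicate's own 3' UTR peaks in the first and the last 10000 ranks (circles joined within a replicate) and of all 3' UTR bases of the rule (square and dotted line) with a convergent neighbour ending within 500 bp (left) or a host with a pooled promoter peak (right). Left, the values are 52.5% for the pooled peaks, 47.03% to 51.3% and 35.7% to 44.8% for the 2 rank ranges, and 35.9% for the bases; right, each replicate's stronger peaks also lie above its weaker ones.

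Along the 3' UTR the summits were spread much like the bases, with fewer next to the stop codon. The median summit lay 182 bp after the stop codon and 124 bp before the transcript end, in a 3' UTR of median length 358 bp. The summit was within 100 bp of the stop codon for 33.8% of the peaks and 42.7% of the bases, and within 100 bp of the transcript end for 43.4% and 40.2%. In the replicates' own peaks the share near the stop codon was 41.97%, 38.1% and 42.2%, lower than the bases in 3 of 3 with a mean difference of -1.91 ± 2.29 points, which is within the spread of the replicates (SD, n = 3; exact sign-flip permutation test, two-sided, p = 0.25). The share near the transcript end was 44.3%, 41.5% and 37.2%, on both sides of the value for the bases.

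**Figure D5:**
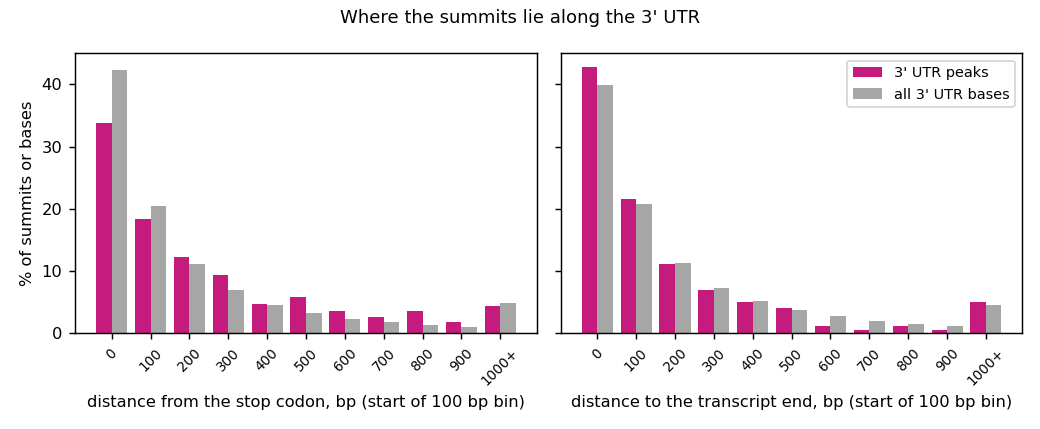
Distance of the summit from the stop codon (left) and to the transcript end (right) in bins of 100 bp, for the 343 3' UTR peaks (magenta) and all 3' UTR bases of the rule (grey), in percent. In the first bin the peaks have 33.8% against 42.4% of the bases after the stop codon, and 42.9% against 39.8% before the transcript end.

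A few other annotations stood near the summits. The start of another gene lay more than 500 and up to 1000 bp downstream for 49 peaks (14.3%, against 16.0% of the bases). A noncoding gene lay within 200 bp of 26 summits (7.58%), among them 11 with an ncRNA, 7 with a piRNA, 3 with a snoRNA (at rpt-2, smk-1 and F58D5.5) and 2 with a tRNA gene (at F58D5.2 and mdf-2). The share of 3' UTR bases this close to a noncoding gene was not computed. These counts therefore show neither an excess nor a lack at the summits. The summit was in the 3' UTRs of 2 genes at once for 18 peaks (5.25%, against 2.94% of the bases). Chromosomes I to V had 78, 56, 73, 63 and 73 peaks, or 22.7%, 16.3%, 21.3%, 18.4% and 21.3%, against 19.3%, 19.8%, 19.2%, 19.3% and 22.3% of the bases. The middle of 3 equal parts of each chromosome held 46.9% of the peaks and 39.2% of the bases.

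The DNA under the summits had the composition of 3' UTRs and not that of LIN-15B's promoter peaks. Median G+C over windows of 100 bases to each side of the summit was 32.8% at 3' UTR peaks and 32.3% over the 3' UTR bases, against 36.3% at all other autosomal peaks. By class it was 34.3% at intron and at intergenic, 36.8% at promoter, 39.3% at coding exon and 40.3% at other exon peaks. In the replicates' own lists the difference of 3' UTR peaks from the other peaks was -2.49, -2.99 and -3.98 points in replicates 1, 2 and 3. Windows at 3' UTR peaks held on average 5.15 CG dinucleotides and those over 3' UTR bases 5.27, against 7.08 at other autosomal peaks and 8.70 at promoter peaks.

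Motifs, searched as exact letters on both strands of these windows, followed the same line. AATAAA, the polyadenylation signal, was in 63.0% of the windows at 3' UTR peaks, 60.5% of those over 3' UTR bases and 38.7% of those at other autosomal peaks. TTTTTT was in 70.3%, 73.3% and 59.1% of the same sets. CTGCGTC was in 0.875% of 3' UTR peaks and 0.905% of 3' UTR bases, against 4.27% of other autosomal and 7.80% of promoter peaks. GCGCGC was in 1.75% (6 windows), against 0.805% over 3' UTR bases, 3.64% at other autosomal and 7.95% at promoter peaks. The E2F-type elements TTCGCGC and TTCCCGC were in 1.46% and 1.17% of 3' UTR peaks, against 0.667% and 1.93% of the bases. CACGTG was in 3.499% against 2.90%, TTTGAA in 53.1% against 50.1% and GAGAGA in 16.3% against 14.0% of the bases. GCGCGC and TTCGCGC share letters and can overlap. A match describes the sequence and is not a bound site.

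Among 19 gene lists, germline RNA regulators had the largest share of their genes as hosts, while ribosomal protein genes had the largest ratio of peaks to bases. Of the 39 with a 3' UTR, 8 hosted a peak (20.5%), against 2.27% of all 14438 such genes. Long 3' UTRs count more in a list of 3' UTR peaks, and against bases the list had 2.33% of the peaks and 0.696% of the sequence. The hosts are cgh-1, a DEAD-box RNA helicase of germ granules (score 24.5, ranks 7385, 18380 and 1857 in replicates 1, 2 and 3), and pos-1, a zinc-finger regulator of maternal mRNAs (24.0, absent from replicate 1, then 208 and 7385). The others are mex-5 (14.6), gld-3 (13.1), puf-12 (12.9), pgl-1 (12.4), larp-5 (11.7) and puf-5 (11.5). Only cgh-1 was covered in all 3 replicates. In the replicates' own 3' UTR peaks the list had 0.886%, 0.828% and 0.644% (mean 0.786% ± 0.127, SD, n = 3), close to its 0.696% of the sequence, so the excess in the pooled list was not seen in the single lists.

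Ribosomal protein genes had 3 hosts of 77, rpl-3, rps-17 (score 21.5, ranks 987, 7542 and 1697) and rps-26 (17.1, rank 1438 in replicate 3 alone). They were 0.875% of the peaks and 0.138% of the sequence, and 0.261% ± 0.0625 of the replicates' own 3' UTR peaks (SD, n = 3). Each of the 3 also had a pooled promoter peak. The cell cycle and replication list had 6 hosts of 73 with 7 peaks: mdf-2, a spindle checkpoint gene (14.4), cdk-12 with 2 peaks (14.1 and 12.9), pcn-1, zyg-11 (13.6), cdc-48.3 (13.2) and plk-1, a Polo kinase (12.1). Of these, cdk-12 encodes a kinase that acts in transcription. The list had 2.04% of the peaks and 0.771% of the sequence, and 0.997%, 1.30% and 1.502% of the replicates' own 3' UTR peaks.

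The remaining lists had between 0 and 5 hosts each, with shares on both sides of the 2.27% of all genes. Above it, proteasome genes had 2 of 33 (6.06%, rpt-2 and rpn-8), chaperones 2 of 52 (3.85%, dnj-20 and hsp-17), splicing genes 2 of 38 (5.26%, snr-7 and rsp-3) and translation factors 2 of 37 (5.41%, eif-2Bdelta and eef-2). The list named homeobox had 3 of 63 (4.76%, mab-5, lim-9 and ceh-16), although lim-9 encodes a LIM-domain protein without a homeodomain. Muscle genes had 1 of 33 (3.03%, pat-4, score 19.6) and neuronal genes 5 of 180 (2.78%, among them the glutamate receptor gene glr-1). Against bases, muscle and neuronal genes were not above, with 0.292% and 1.46% of the peaks and 0.502% and 1.51% of the sequence. The other lists named here had a larger share of the peaks than of the sequence. In the replicates' own 3' UTR peaks this turned for translation factors (0.257% ± 0.121, SD, n = 3, against 0.314% of the sequence). The proteasome, chaperone, splicing and homeobox lists kept means above their share of the sequence, with 0 proteasome hosts in replicate 1. Below the 2.27% of all genes, the synMuv and chromatin list had 1 of 51 (1.96%, efl-1), collagen and cuticle genes 3 of 188 (1.60%, cut-6, dpy-20 and cutl-22) and nuclear hormone receptors 3 of 224 (1.34%, nhr-68, nhr-66 and nhr-4). Chemoreceptors had 2 of 418 (0.478%, srx-134 and srx-58) and intestinal genes 1 of 211 (0.474%, clec-90). Mitochondrial (127 genes), small RNA pathway (72), histone (14) and major sperm protein genes (8) had 0 hosts in the pooled list. In the replicates' own 3' UTR peaks the small RNA pathway list had 6, 10 and 7 hosts in replicates 1, 2 and 3 (0.902% ± 0.262 of peaks, SD, n = 3, against 0.687% of the bases). The mitochondrial list had 3, 2 and 7 hosts there (0.440% ± 0.274, against 0.522%), histone genes 1, 1 and 0 and major sperm protein genes 1, 0 and 0. No test was made of these counts, which are small.

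At the edge of the promoter window, the members closest to a downstream start were gsp-2 (503 bp upstream of kap-1, score 11.9), hxk-1 (518 bp, 16.9) and rab-11.1 (525 bp, 25.97). The closest summits left out were at ima-2 (497 bp, 14.3), cct-8 (494 bp, 11.6) and atgl-1 (489 bp, 16.5). Without the window 434 summits would lie in a 3' UTR and in no coding sequence. Of the 91 removed, 1 was optimal.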

How the data were processed

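The authors' deposited ce11 peak lists were used: 1 for each of 3 biological replicates, 1 for their pool and 1 of optimal peaks. Per the deposited descriptions, the replicate and pooled lists hold peaks with background, meant to be passed to a reproducibility test (IDR) that gives the optimal list. The score is the authors' deposited signal value of each peak. The aligner, peak caller, control and cutoff settings are not given in the sources used. The ce10 lists are not used here. The lists give no depth and hence no counting precision for a peak; lists of fixed length reach into background.

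Summits were classed in the order promoter, coding exon, 3' UTR, intron, other exon and intergenic with Ensembl release 115 on WBcel235, and sequence came from the RefSeq copy of that assembly. Top-ranked means the 383 highest scores of a list, as many as there are optimal peaks. Recovery means that a replicate peak covers the pooled summit. Differences over 3 replicates were tested by an exact two-sided sign-flip permutation test. Intervals are exact binomial at 95% and cover counting error only. Functions were tested on simulated data.

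Named genes are the hosts and neighbours of the optimal 3' UTR peaks, of the 15 highest scores, up to 5 hosts of each list, hosts with 3 or more peaks, and 3 on each side of the window edge. Germline hosts beyond 5, the sixth cell cycle host, hosts with an optimal promoter peak and those beside tRNA or snoRNA genes were picked with their values in view. The peaks, lists and motifs were chosen with earlier results of these data known. The comparisons with all 3' UTR bases and between rank ranges were added after seeing the data. Alternatives were other windows, overlaps, list lengths and score cutoffs, and each replicate left out. Python 3.11.15 was used with numpy 2.4.6, pandas 2.3.3, scipy 1.17.1 and matplotlib 3.10.9.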

Additional observations from a re-analysis of the deposited data

How the results depend on the processing

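Of 64 values under the alternatives, 4 turned their direction and 7 moved by more than the spread or 1.5 times; some of the others moved too, as given here. The share of hosts with a convergent neighbour was 73.0% with a promoter window of 1000 bp upstream to 200 bp downstream and 57.5% with 250 bp to 50 bp, against 60.9% and 46.6% of the bases those windows leave, so the difference kept its sign. In the upper 50 percent of optimal peaks by score 0 were 3' UTR peaks. The upper 50 percent of the pooled list held 186 3' UTR peaks, of which 5.56% were recovered in the top-ranked peaks on average; 3.23% were optimal, and the ratio of median scores, 1.02 over the whole list, was 0.980. With the 1000 highest-scoring peaks of each replicate, recovery was 8.84% and the difference between the share of 3' UTR peaks in the top and in the rest turned to 0.5004 points (exact sign-flip permutation test, p = 0.5); the cause was not tested. With 50 bases to each side of the summit the G+C difference from other autosomal peaks was -4.95 points. With each replicate left out in turn, mean recovery ran from 2.92% to 3.64% in the top-ranked peaks and from 60.3% to 64.7% in the full lists, the top minus rest difference from -1.43 to 0.111 points and the log2 score ratio from 0.07 to 0.12. The excess of near convergent neighbours in the replicates' own peaks ran from 6.61 to 7.62 points and the difference in full-list recovery from -3.99 to 6.25 points; both ranges were added after seeing the data.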
